A study of Mus musculus with 2 samples.

Results

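Mast cells and basophils are granulocytes that bind IgE and release stored mediators. Described here are 10 genes of their granules and of their IgE receptor, Cma1, Mcpt4, Tpsb2, Tpsab1, Cpa3, Mcpt8, Prss34, Fcer1a, Ms4a2 and Hdc, out of 27998 genes in the files. The genes were chosen by name for what they encode, and the cells by UMIs (unique molecular identifiers, one for each captured RNA molecule) of Kit, Ptprc and Cd200r3. Single cells came from ear skin of male ICR mice aged 7 to 8 weeks. They were profiled by scRNA-seq in 1 control library (CTRL) and 1 library of DNFB-elicited allergic contact dermatitis (ACD). DNFB is a skin-sensitizing hapten, applied to the dorsal skin at 1.0% and 6 days later to the ears at 0.2%, and the ears were taken 60 hr afterwards. How many mice made up a library is not given in the sources used here. With 1 library per group no test of ACD against CTRL was possible, so all intervals below are exact 95% intervals for counting error only, and differences between mice cannot be told apart from differences between the conditions.

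Connective tissue mast cells of the skin fill their granules with the chymases encoded by Cma1 and Mcpt4, the tryptases encoded by Tpsb2 and Tpsab1, and carboxypeptidase A3, encoded by Cpa3. Basophils are short-lived blood granulocytes that enter inflamed tissue. They carry the proteases of Mcpt8 and Prss34 in place of those of Cma1, Mcpt4, Tpsb2 and Tpsab1. Both cell types display the high-affinity IgE receptor, whose IgE-binding alpha chain is Fcer1a and whose signal-amplifying beta chain is Ms4a2, and both make histamine from histidine through the enzyme encoded by Hdc.

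The proteases lie in clusters. Cma1 (ENSMUSG00000022225, chr14:55941451-55944675), Mcpt4 (ENSMUSG00000061068, chr14:56059629-56062313) and Mcpt8 (ENSMUSG00000022157, chr14:56082166-56085273) lie within 144 kb that hold 7 protein-coding genes. Tpsb2 (ENSMUSG00000033825, chr17:25366305-25369098), Tpsab1 (ENSMUSG00000024173, chr17:25343245-25345562) and Prss34 (ENSMUSG00000056399, chr17:25298394-25300165) lie within 71 kb with 5 such genes. The genes that lie between members were nearly silent, with at most 11 UMIs in CTRL and 9 in ACD for any of them (both Cma2). The other members stand alone: Cpa3 (ENSMUSG00000001865, chr3:20215620-20242181), Fcer1a (ENSMUSG00000005339, chr1:173221284-173227214), Ms4a2 (ENSMUSG00000024680, chr19:11615523-11623719) and Hdc (ENSMUSG00000027360, chr2:126593667-126619299). Positions are those of GENCODE M21 on GRCm38. In the last 500 bases of the longest coding transcript, which 3' libraries read, Tpsb2 and Tpsab1 shared 0 of 451 words of 50 bases.

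Upstream sequences are shown for 5 members that stand for the patterns described below: 2 chymases (Cma1 and Mcpt4), the basophil protease Mcpt8, and Cpa3 and Ms4a2, which both kinds of cell express. They come from RefSeq on GRCm38.p6 and end just before the RefSeq start or, where GENCODE begins further upstream, before the GENCODE start. Capitals mark GATA-type words, the binding words of the GATA factors of both lineages, searched on both strands as AGATAA or TGATAA and, ending in G, as AGATAG or TGATAG. The stretches are chr14:55944676-55944925 for Cma1, chr14:56062314-56062560 for Mcpt4, chr3:20242182-20242431 for Cpa3, chr14:56085274-56085447 for Mcpt8 and chr19:11623720-11623969 for Ms4a2, each read from the minus strand.
Cma1: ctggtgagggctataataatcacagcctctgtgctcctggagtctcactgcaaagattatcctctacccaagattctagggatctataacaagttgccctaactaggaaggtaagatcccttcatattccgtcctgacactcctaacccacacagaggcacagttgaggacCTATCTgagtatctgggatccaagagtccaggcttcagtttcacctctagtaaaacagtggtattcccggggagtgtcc
Mcpt4: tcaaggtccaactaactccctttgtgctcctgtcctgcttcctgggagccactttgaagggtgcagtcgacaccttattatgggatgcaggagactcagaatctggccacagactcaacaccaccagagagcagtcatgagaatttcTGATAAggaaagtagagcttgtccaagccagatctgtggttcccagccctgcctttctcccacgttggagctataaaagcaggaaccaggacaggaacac
Cpa3: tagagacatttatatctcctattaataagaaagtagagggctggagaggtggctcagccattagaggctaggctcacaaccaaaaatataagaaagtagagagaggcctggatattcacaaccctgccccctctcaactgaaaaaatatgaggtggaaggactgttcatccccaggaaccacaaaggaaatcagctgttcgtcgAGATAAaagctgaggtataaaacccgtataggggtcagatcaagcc
Mcpt8: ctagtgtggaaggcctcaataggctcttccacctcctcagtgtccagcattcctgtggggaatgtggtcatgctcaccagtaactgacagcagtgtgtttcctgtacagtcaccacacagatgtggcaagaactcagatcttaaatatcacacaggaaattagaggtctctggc
Ms4a2: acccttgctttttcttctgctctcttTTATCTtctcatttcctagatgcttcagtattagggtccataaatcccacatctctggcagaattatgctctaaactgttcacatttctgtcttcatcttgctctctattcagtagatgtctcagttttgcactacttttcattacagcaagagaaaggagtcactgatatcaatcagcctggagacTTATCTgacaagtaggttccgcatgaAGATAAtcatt
Of the 8 members with a sequence (Tpsb2 and Tpsab1 had none), 7 held such a word within 250 bases upstream of the RefSeq start, as did 26.5% of all 32851 promoters. Mcpt8 held none, and Ms4a2 held 3, the nearest beginning 11 bases upstream. A match is a description of the letters and not evidence of binding.

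CTRL held 12213 kept cells and 92188895 UMIs (median 6850 per cell), and ACD held 11665 kept cells and 99649023 UMIs (median 7447). Of the kept barcodes, 47 occurred in both libraries, 2 of them in the CTRL Kit+ Ptprc+ gate.

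The gate meant for mast cells, with at least 1 UMI each of Kit, the stem cell factor receptor, and Ptprc, the pan-leukocyte antigen CD45, held 65 CTRL cells (0.532%, 0.411 to 0.678%) and 184 ACD cells (1.58%, 1.36 to 1.82%). Its label went against its content. Cma1 was found in 16 of the 65 CTRL cells and 38 of the 184 ACD cells, and at least 3 UMIs of the T/NK/ILC markers were found in 28 (43.1%) and 121 (65.8%). It is therefore called by its rule, Kit+ Ptprc+. It also missed most cells full of mast proteases. Of 102 CTRL and 153 ACD cells with at least 5 UMIs of Cma1, Mcpt4, Tpsb2 and Tpsab1 together (protease-rich cells), 58 and 97 had a Kit UMI, 24 and 50 had a Ptprc UMI, and 16 and 35 had both. Their median depth was 1120.5 UMIs in CTRL and 1734 in ACD, below that of all cells.

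The gate meant for basophils, with a UMI of Cd200r3, an activating receptor of these granulocytes, and none of Kit, held 12 CTRL cells (0.0983%, 0.0508 to 0.172%) and 172 ACD cells (1.47%, 1.26 to 1.71%). Of the 172 ACD cells, 139 held Mcpt8. In CTRL only 1 of the 12 did, and 6 of the 12 had at least 3 UMIs of dermal fibroblast markers, so the CTRL side of this gate is mixed. Since both gates were mixed, the member comparisons are given a second time for stricter gates chosen after seeing the data, without use of any member gene. The 2-marker mast gate asks for at least 2 of Kit, Mrgprb1, Mrgprb2 and Slc18a2, and held 55 CTRL and 98 ACD cells. The 2-marker basophil gate asks for at least 2 of Cd200r3, Cyp11a1, Il4 and Gata2 with no Kit, Mrgprb1 or Mrgprb2, and held 16 CTRL and 288 ACD cells. Of these, 52 and 92 mast-gated cells were protease-rich, and 5 CTRL and 248 ACD basophil-gated cells held Mcpt8. In CTRL, 6 of the 16 basophil-gated cells were protease-rich, against 9 of the 288 in ACD. The 2-marker mast gate was not free of other cells either. At least 3 UMIs of dermal fibroblast markers were found in 9 of its 55 CTRL cells and 0 of its 98 ACD cells, and of melanocyte markers in 0 and 4, with a summed melanocyte marker level of 6.69 per 1000000 UMIs in CTRL and 3085 in ACD. The part of these cells in the results was not tested.

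**Figure D1:**
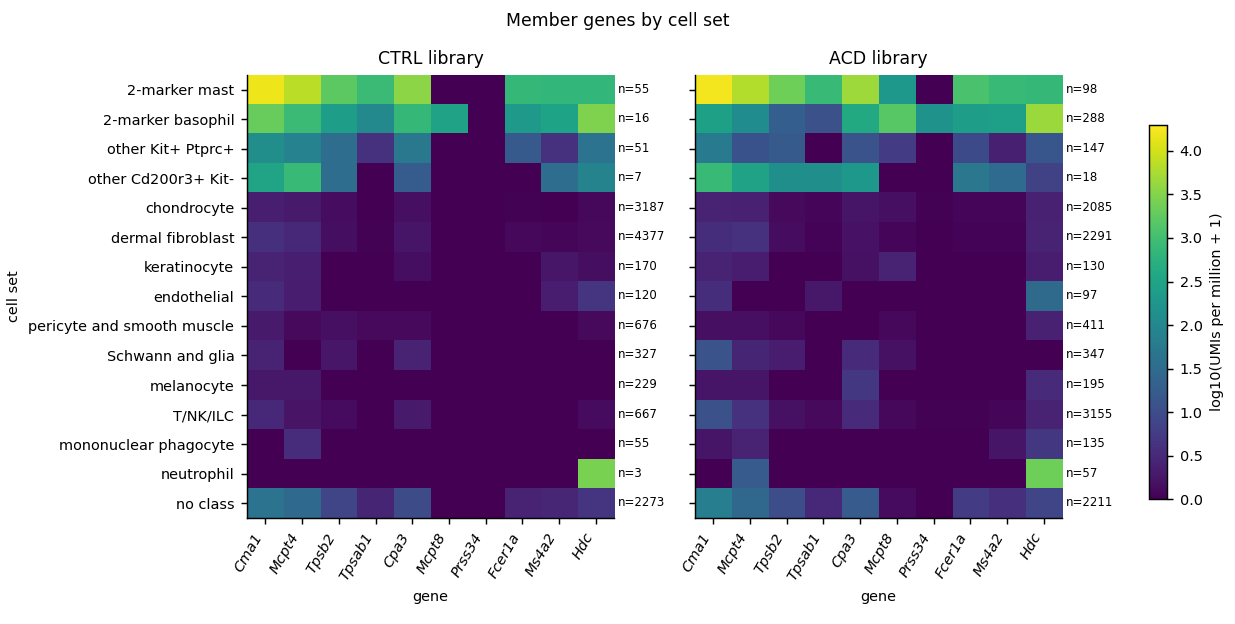
Level of each member gene (columns) in each cell set (rows; n, number of cells), as log10 of UMIs per 1000000 UMIs of the set plus 1, in CTRL (left) and ACD (right). Cells of the 2-marker gates are shown first, and the rows called other hold the cells of the Kit+ Ptprc+ and Cd200r3+ Kit- gates outside them. The first 5 genes peak in 2-marker mast cells at 843 to 15400.1 per 1000000 in CTRL, Mcpt8 and Prss34 in 2-marker basophils, and Hdc in both basophil-gated and neutrophil-gated cells.

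ACD held more cells of both gates per 100 cells. The share of Kit+ Ptprc+ cells was higher by a log2 ratio of 1.57 (1.15 to 2.00) and that of Cd200r3+ Kit- cells by 3.91 (3.07 to 4.89). With the 2-marker gates the log2 ratios were 0.90 (0.41 to 1.40) for mast and 4.24 (3.51 to 5.06) for basophil cells. When gated cells with at least 5 marker UMIs of another class were left out, the Kit+ Ptprc+ gate held 35 CTRL and 58 ACD cells, a log2 ratio of 0.79. All shares are of recovered cells and move with the share of every other class, T/NK/ILC cells among them (5.46% of CTRL and 27.1% of ACD cells).

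In Kit+ Ptprc+ cells the mast proteases were lower per 1000000 UMIs in ACD, but in 2-marker mast cells they were close in the libraries. Single cells weighed on the CTRL side of the Kit+ Ptprc+ gate, where the top cell for Cma1 held 32.0% of its UMIs. For Mcpt4, Tpsb2 and Tpsab1 the top CTRL cell held 43.4%, 15.7% and 77.8%. Among the 9 members with at least 50 UMIs in Kit+ Ptprc+ cells, 2 were lower in ACD by 2-fold or more (Mcpt4 and Tpsab1), where 6.42% of 4972 genes were, and 1 was higher (Mcpt8), where 6.46% were. With the 2-marker mast gate none of 9 members was lower by 2-fold (6.58% of 1322 genes were) and 1 was higher, again Mcpt8 (5.22%).

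Cma1, which encodes a chymase of skin mast cells, stood at 2343 (2191 to 2503) UMIs per 1000000 in CTRL and 1487 (1428 to 1548) in ACD Kit+ Ptprc+ cells. Its level in 2-marker mast cells was 15400.1 (14778 to 16042) in CTRL and 16903 (16464 to 17351) in ACD, giving a log2 ratio of 0.13 (0.06 to 0.20). The direction thus turned with the gate, by less than 2-fold either way. Over single 2-marker mast cells the level of Cma1 ran from 0 to 69577 with a median of 17978 per 1000000 in CTRL, and from 0 to 56801 with a median of 22548 in ACD, so that the cells of the libraries overlapped almost entirely.

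Mcpt4, which encodes a second chymase, stood at 1153 per 1000000 in CTRL and 519.5 in ACD Kit+ Ptprc+ cells, with a log2 ratio of -1.15 (-1.32 to -0.98). One cell held 43.4% of its CTRL UMIs there, and without that cell the log2 ratio was -0.38 (-0.58 to -0.16), no longer past 2-fold. Its 2-marker mast level was 7115 in CTRL and 6315 in ACD, with a log2 ratio of -0.17 (-0.28 to -0.06). Of the 2 chymases Mcpt4 thus had the lower ratio in both gates.

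Tpsb2, the more abundant tryptase gene, was at 272 and 199 per 1000000 in Kit+ Ptprc+ cells and at 1645 and 2227 in 2-marker mast cells of CTRL and ACD, with log2 ratios of -0.45 (-0.77 to -0.11) and 0.44 (0.23 to 0.65). Tpsab1, the other tryptase gene, was at 168 and 54.5 per 1000000 in Kit+ Ptprc+ cells, a log2 ratio of -1.62 (-2.11 to -1.13), but 1 cell held 77.8% of its CTRL UMIs. Without that cell the log2 ratio was 0.50 (-0.32 to 1.43), and in 2-marker mast cells it was -0.10 (-0.41 to 0.22).

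The mix of the 4 proteases can be read within protease-rich cells, where neither Kit nor Ptprc enters. Cma1 made up 59.2% (57.8 to 60.5%) of their UMIs in CTRL and 64.0% (63.1 to 64.8%) in ACD. Mcpt4 made up 30.8% (29.6 to 32.0%) in CTRL and 24.7% (24.0 to 25.5%) in ACD. Tpsb2 made up 7.08% (6.41 to 7.79%) and 8.40% (7.91 to 8.92%), and Tpsab1 2.98% and 2.87%. The intervals of Cma1, Mcpt4 and Tpsb2 do not overlap between the libraries, and those of Tpsab1 do. All 4 messages were found together in 40 of 102 CTRL cells and 78 of 153 ACD cells.

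Cpa3, which encodes the granule carboxypeptidase, was shared by both lineages. In 2-marker mast cells it stood at 3591 (3294 to 3908) per 1000000 in CTRL and 4640.05 (4411 to 4878) in ACD, and it was found in 50 of 55 and 90 of 98 cells. In ACD 2-marker basophil cells it stood at 414 (382 to 448) and was found in 167 of 288 cells. Cells with at least 5 Mcpt8 UMIs held Cpa3 in 95 of 147 ACD cells, and Cma1 in 5.

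Mcpt8 and Prss34, the basophil proteases, belonged almost wholly to ACD. CTRL held 23 Mcpt8 UMIs and no Prss34 UMI, and ACD held 2388 and 244. In Cd200r3+ Kit- cells Mcpt8 stood at 137 (75.1 to 231) per 1000000 in CTRL, all from 1 cell, and at 1493 (1417 to 1573) in ACD. The 2-marker basophil gate held every one of the 23 CTRL UMIs, in 5 cells, and 2283 (95.6%) of the ACD UMIs, in 248 cells, and there the levels were 304 (192 to 455) and 1536 (1473 to 1600) per 1000000. In Kit+ Ptprc+ cells Mcpt8 was found in 0 of 65 CTRL cells, which allows up to 4.62% of cells with a UMI (3 counts of the total, not a limit on cells that express it), and in 6 of 184 ACD cells. That made it at least 5.58-fold higher against a floor of 3 UMIs, but 79.2% of those UMIs came from 1 cell.

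Prss34 was rare and uneven. Its 244 ACD UMIs lay in 14 cells, 150 of them (61.5%) in 1 cell, and 12 of the 14 cells also held Mcpt8. None lay in a Kit+ Ptprc+ cell. Most cells with Mcpt8 therefore had no Prss34 UMI, and a level per 1000000 over the gate (163 in 2-marker basophil cells of ACD) describes few cells.

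**Figure D2:**
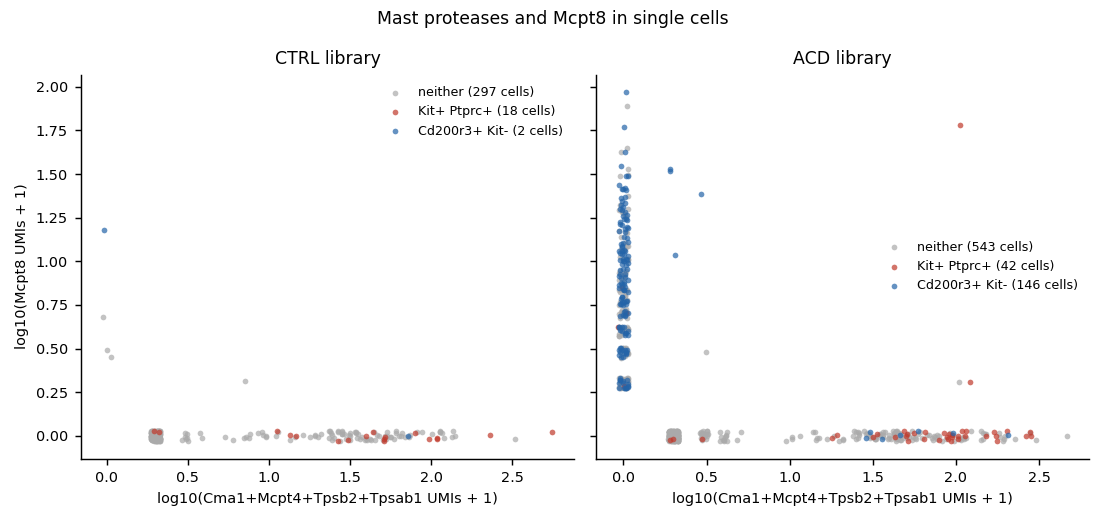
Each point is a cell with at least 1 UMI of the genes on the axes, in CTRL (left) and ACD (right), with log10 of the summed UMIs of Cma1, Mcpt4, Tpsb2 and Tpsab1 plus 1 across and of Mcpt8 plus 1 upwards. Points are spread slightly at random so that they do not hide each other, and colours give the gate. The 2 kinds of cell lie along separate axes, and in ACD 1 cell is both protease-rich and has at least 5 Mcpt8 UMIs.

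Fcer1a and Ms4a2 encode chains of the IgE receptor. In 2-marker mast cells Fcer1a stood at 742 (611 to 894) per 1000000 in CTRL and 1181 (1067 to 1304) in ACD, giving a log2 ratio of 0.67 (0.36 to 0.99). Ms4a2 stood at 716 (586 to 865) and 801 (708 to 904), a log2 ratio of 0.16 (-0.17 to 0.50). In Kit+ Ptprc+ cells the log2 ratios were 0.58 (0.04 to 1.17) for Fcer1a and -0.33 (-0.88 to 0.25) for Ms4a2. The interval of Fcer1a thus lay above 0 in both gates and that of Ms4a2 held 0 in both, but with gates at 2 UMIs the log2 ratio of Fcer1a was -0.47. One ACD cell held 18.4% of the Fcer1a UMIs of Kit+ Ptprc+ cells. The gates are not separate samples, since 14 CTRL and 37 ACD cells lay in both.

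In ACD basophils the receptor genes were found in about as many cells as each other, Fcer1a in 155 and Ms4a2 in 166 of 288 cells of the 2-marker gate. That gate held 42.2% of all Fcer1a UMIs and 54.4% of all Ms4a2 UMIs in ACD, against 9.58% and 13.8% in CTRL. The 2-marker mast gate held 66.5% and 61.5% of them in CTRL, and 45.0% and 36.2% in ACD.

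Hdc, the histamine-forming enzyme, had its highest level in basophil-gated cells. In the 2-marker basophil gate it stood at 2982 (2606 to 3398) per 1000000 in CTRL and 4537 (4429 to 4646) in ACD, and was found in 13 of 16 and 283 of 288 cells. The 2-marker mast gate had levels of 702 (574 to 850) and 741 (651 to 840), a log2 ratio of 0.08 (-0.26 to 0.42). Of all Hdc UMIs in the libraries, 447 in CTRL and 7563 in ACD, the 2-marker basophil gate held 50.6% and 89.2%, and the 2-marker mast gate 23.5% and 3.25%.

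Neutrophil-gated cells came next. After the 2-marker cells had been taken out, 57 remained in ACD with 2217 (1963 to 2495) Hdc UMIs per 1000000, found in 52 of them, and 3 remained in CTRL with 2676 (1530 to 4346). Their other member genes were at or near 0, with at most 2 UMIs (Mcpt4) in ACD. Endothelial-gated cells of ACD, with protease-rich, Mcpt8-rich and 2-marker cells taken out, had 33 Hdc UMIs in 15 of 97 cells, 29.9 (20.5 to 41.9) per 1000000. In CTRL they had 3 UMIs in 120 cells, 3.35 (0.69 to 9.80) per 1000000. Their median depth was 10491 UMIs in ACD and 5594 in CTRL. Thinned to 2000 UMIs each, 4 of 97 ACD and 1 of 115 CTRL cells kept an Hdc UMI, so the shares were not distinguishable at that depth. One ACD cell held 8 of the 33 UMIs.

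In Cd200r3+ Kit- cells, 6 of the 8 members with at least 50 UMIs were higher in ACD by 2-fold or more, where 22.5% of 2614 genes were, and 1 was lower, where 13.1% were. Those higher were Cpa3, Mcpt8, Prss34, Fcer1a, Ms4a2 and Hdc, and the one lower was Mcpt4, all of whose 49 CTRL UMIs came from 1 cell. The ratio compares 172 ACD cells with 12 CTRL cells of which 1 held Mcpt8, and the part of that difference in content in the ratios was not tested. In the 2-marker basophil gate, where 5 of 16 CTRL cells held Mcpt8, the log2 ratio of Hdc was 0.61 (0.41 to 0.80), of Fcer1a 0.23 (-0.49 to 1.05), of Ms4a2 -0.24 (-0.83 to 0.42) and of Cpa3 -0.81 (-1.21 to -0.38). The last 2 turned direction between the gates. In the 2-marker basophil gate 6 of 16 CTRL and 9 of 288 ACD cells were protease-rich, and their part in these ratios was not tested.

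**Figure D3:**
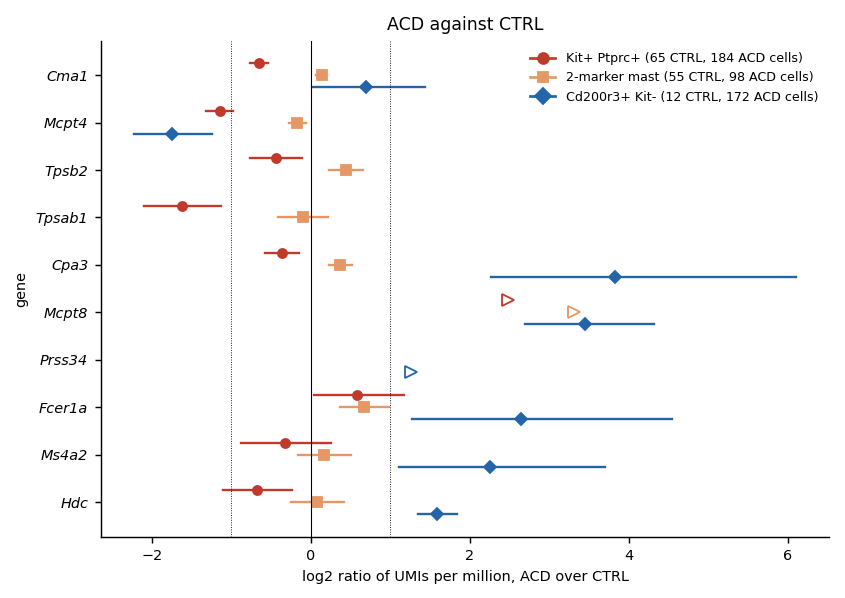
Log2 ratio of UMIs per 1000000, ACD over CTRL, of each member gene in Kit+ Ptprc+, 2-marker mast and Cd200r3+ Kit- cells. Lines are exact 95% intervals for counting error, open triangles are lower bounds against a floor of 3 CTRL UMIs, dotted lines mark 2-fold, and members with under 50 UMIs are not drawn. For 2-marker mast cells the 8 ratios that are not bounds lie between -0.17 and 0.67.

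Within ACD the basophil gate can be set against the mast gate, so that both sides share a library. In Cd200r3+ Kit- cells against Kit+ Ptprc+ cells, 4 of 10 members were higher by 2-fold or more (Mcpt8, Prss34, Ms4a2 and Hdc), where 10.2% of 5556 genes were, and 3 were lower (Cma1, Mcpt4 and Tpsb2), where 21.7% were. With the 2-marker gates 3 were higher (Mcpt8, Prss34 and Hdc, against 19.3% of 3863 genes) and the other 7 lower (against 18%). The gates therefore gave opposite answers for the IgE receptor. Ms4a2 was 3.67-fold higher in Cd200r3+ Kit- cells (279.5 against 76.2 per 1000000) but 2.99-fold lower in 2-marker basophil cells (268 against 801). Fcer1a went from 1.93-fold higher to 4.77-fold lower in the same way. Between the gates the basophil-side level of Fcer1a went from 246 to 248 per 1000000 and the mast-side level from 128 to 1181. Cells with at least 3 T/NK/ILC marker UMIs made up 121 of 184 in the Kit+ Ptprc+ gate and 8 of 98 in the 2-marker mast gate, and their part in the result was not tested.

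Hdc was 6.12-fold higher in 2-marker basophil than in 2-marker mast cells (4537 against 741 per 1000000), and Mcpt8 was 7.72-fold higher, although 86.4% of the Mcpt8 UMIs on the mast side came from 1 cell. Cma1 was 60.4-fold lower (279.8 against 16903 per 1000000) and Tpsb2 122.6-fold lower, and the proteases on the basophil side lay in few cells, Cma1 in 14 and Tpsb2 in 9 of 288. Cpa3 was 11.2-fold lower. Its interval (log2 ratio -3.62 to -3.35) lay apart from those of all 4 mast proteases, whose log2 ratios were -5.67 or below.

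**Figure D4:**
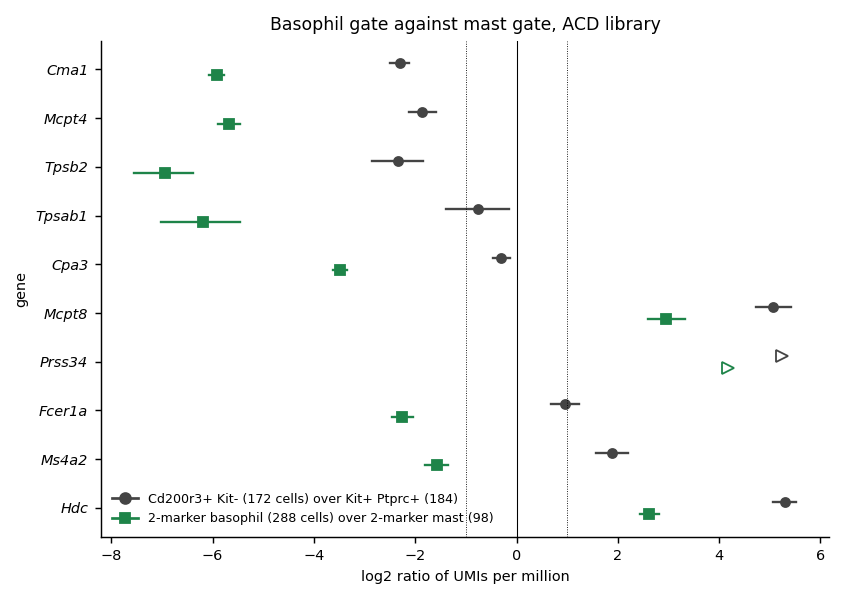
Log2 ratio of UMIs per 1000000 in basophil-gated over mast-gated ACD cells for each member gene, with the Cd200r3+ Kit- and Kit+ Ptprc+ gates (grey) and with the 2-marker gates (green). Lines are exact 95% intervals for counting error and triangles are lower bounds against a floor of 3 UMIs. Mcpt8, Prss34 and Hdc lie to the right of 0 with both pairs, and Fcer1a and Ms4a2 change sides.

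Free RNA from broken cells gives UMIs in cells that do not express a gene. In the 7 stromal classes (chondrocyte, dermal fibroblast, keratinocyte, endothelial, pericyte and smooth muscle, Schwann and glia, melanocyte), Cma1 stood at 4.801 per 1000000 in CTRL (84 of 9094 cells) and 8.61 in ACD (60 of 5570 cells). The 4 mast proteases together stood at 8.58 and 16.4 per 1000000. Thinned to 2000 UMIs per cell, 0.604% of CTRL and 0.565% of ACD stromal cells kept one of their UMIs. Most of the Cma1 lay in a few cells. Without the cells that fall in the 2-marker gates, Cma1 stood at 2.02 (1.71 to 2.38) in CTRL and 2.36 (1.98 to 2.80) in ACD. Without protease-rich and Mcpt8-rich cells as well it stood at 1.005 (0.788 to 1.26) in CTRL and 0.996 (0.752 to 1.29) in ACD, found in 72 of 9081 (0.793%) and 54 of 5552 (0.973%) cells, at median depths of 7309 and 9294 UMIs. In the same cells Mcpt8 had no UMI in CTRL and stood at 0.373 (0.231 to 0.571) per 1000000 in ACD, and Hdc stood at 0.206 (0.116 to 0.341) and 2.06 (1.70 to 2.47). The pooled stromal levels of both thus differed between the libraries in the direction of their totals, and that of Cma1 did not. The pooled Hdc value of ACD includes the endothelial-gated cells, at 29.9 per 1000000. With only the 2-marker cells taken out, Hdc stood at 0.255 in CTRL and 1.48 in ACD chondrocytes. In dermal fibroblasts it stood at 0.307 and 1.70.

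Among T/NK/ILC-gated cells outside the granulocyte gates, Cma1 was above this background. In T/NK/ILC-gated cells without any Cd3 UMI (Cd3d, Cd3e or Cd3g, the invariant chains of the T cell receptor complex), and with protease-rich, Mcpt8-rich and 2-marker cells taken out, Cma1 was found in 79 of 398 ACD cells (19.8%, 16.0 to 24.1%) at 59.97 (49.5 to 72.0) per 1000000. In cells with Cd3 it was found in 32 of 2755 (1.16%, 0.796 to 1.64%) at 1.92 (1.34 to 2.65) per 1000000, although these were the deeper cells (median 5572 against 4044 UMIs). That level was also above the stromal level of ACD, but the interval of the share of cells held the stromal share of ACD. Thinned to 2000 UMIs the shares were 10.4% (7.57 to 13.9%) of 383 and 0.333% (0.152 to 0.63%) of 2706 cells. The split by Cd3 was chosen after the values had been seen. In CTRL, 2 of 34 such cells without Cd3 held Cma1, too few to set beside ACD.

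These cells did not hold the other mast proteases in proportion. Their Cma1 share of Cma1 and Mcpt4 UMIs was 97.4% (92.7 to 99.5%, 114 of 117 UMIs), against 72.1% (71.2 to 73.0%) in protease-rich cells and 62.9% (52.0 to 72.9%) in the stromal background of ACD. In ACD cells with Cd3 it was 66.7% (52.5 to 78.9%), an interval that held both of the latter values. The ACD cells without Cd3 held no Tpsb2 UMI. No cell held more than 4 Cma1 UMIs, but the removal of protease-rich cells sets that limit. Of the 79 cells with Cma1, 53 held Ncr1, which encodes the NK cell receptor NKp46, 78 held Gzma, which encodes granzyme A, and 57 held Eomes, a transcription factor of NK cells. Il7r, the interleukin 7 receptor, was found in 1 of the 79. Among the 319 cells without Cma1 the same genes were found in 207, 265, 183 and 30. As shares of cells with and without Cma1, Ncr1 was found in 67.1% (55.6 to 77.3%) and 64.9% (59.4 to 70.1%), with overlapping intervals. Gzma was found in 98.7% and 83.1%, Eomes in 72.2% and 57.4%, and Il7r in 1.27% and 9.40%. Xcl1, which encodes a chemokine of NK cells, was found in 42 of the 79 (53.2%) and in 251 of the 319 (78.7%), and Klrb1c, an NK cell receptor gene, in 28 (35.4%) and 117 (36.7%). Whether reads from other genes of the serine protease family contributed to these counts was not tested.

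**Figure D5:**
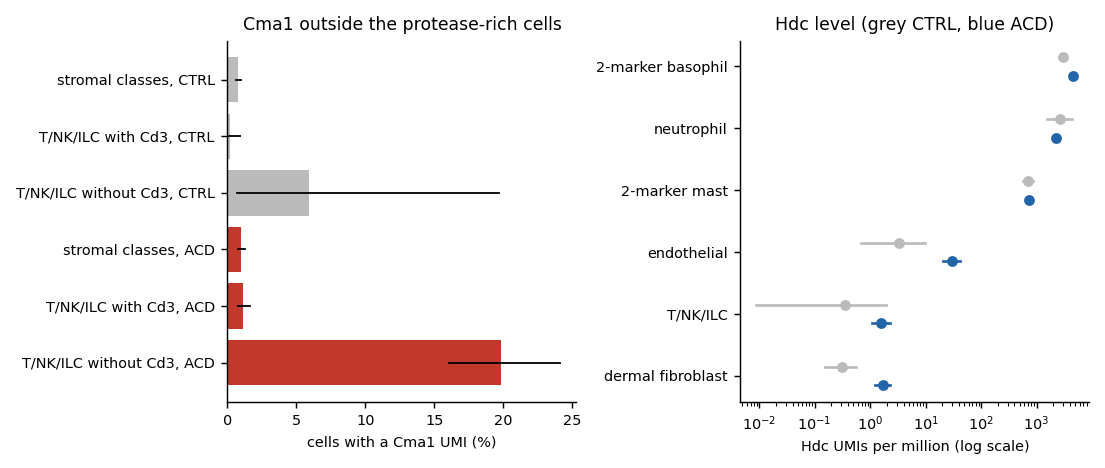
Left, percentage of cells with a Cma1 UMI after protease-rich, Mcpt8-rich and 2-marker cells were taken out, in CTRL (grey) and ACD (red), with exact 95% intervals, highest at 19.8% in ACD T/NK/ILC cells without Cd3. Right, Hdc UMIs per 1000000 on a log scale in 6 cell sets of CTRL (grey) and ACD (blue), with exact 95% Poisson intervals.

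Genes that work with the members were followed as lists. Between ACD and CTRL Kit+ Ptprc+ cells, none of 11 measured IgE receptor signalling genes and none of 10 genes of granule matrix, loading and release passed 2-fold. Of 8 identity and receptor genes 1 was lower, the mast cell receptor gene Mrgprb1 (90.5 to 41.5 per 1000000). Of all 4972 genes, 6.46% were higher by 2-fold or more and 6.42% lower, so these counts lay near the share of all genes. The list medians were 0.41 and -0.25 on the log2 scale for the first 2 lists, beside -0.05 for all genes. Of the 9 histamine handling genes 2 were measured and neither passed. The 1 measured gene of the other granule proteases, Gzmb, was higher, at 13.3 in CTRL and 223 in ACD, a log2 ratio of 4.07 (2.83 to 5.70). At least 3 T/NK/ILC marker UMIs were found in 28 of 65 CTRL and 121 of 184 ACD cells of this gate. In ACD, T/NK/ILC-gated cells had Gzmb at 302 per 1000000 with Cd3 UMIs and 360 without. The part of such cells in the Gzmb ratio and in the other list ratios was not tested.

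The Cd200r3+ Kit- cells moved in most lists at once, with the same 12 CTRL cells of mixed content on the other side. Higher in ACD by 2-fold or more were 6 of 7 IgE signalling genes, 4 of 8 granule genes and 8 of 8 identity and receptor genes, where 22.5% of all genes were. One granule gene, Lamp1, was lower, where 13.1% of all genes were. Both measured genes of the other granule proteases (Ctsg and Gzmb) and both of histamine handling (Hdc and Slc18a2) were higher. These list counts were not repeated with the 2-marker basophil gate. Fcer1g went from 226 to 1296 per 1000000 and Gata2, a transcription factor of both lineages, from 137 to 1454. The list medians were 2.46, 0.93 and 3.32 on the log2 scale, beside 0.10 for all genes.

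In 2-marker mast cells, none of 6 measured IgE receptor signalling genes and none of 5 measured genes of granule matrix, loading and release passed 2-fold between ACD and CTRL. Srgn, which encodes the proteoglycan core that holds granule proteases, went from 2046 to 3125 per 1000000, a log2 ratio of 0.61 (0.43 to 0.80), and Fcer1g, the shared gamma chain of Fc receptors, from 1371 to 1226 (log2 ratio -0.16, -0.41 to 0.09). Among 6 identity and receptor genes, 1 passed 2-fold upward, Csf2rb2, a receptor chain of the IL-3 family (234 to 524 per 1000000). Gzmb, which encodes granzyme B, was at 0 of 55 cells in CTRL, which allows up to 5.45% of cells with a UMI, and at 591 per 1000000 in ACD, but there it lay in 9 of 98 cells and 1 cell held 64.8% of its UMIs. The median log2 ratio was -0.03 for IgE signalling and -0.09 for granule genes, beside 0.02 for all 1322 genes. Of these 1322 genes, 5.22% were higher by 2-fold or more and 6.58% lower.

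The lists were also counted between 2-marker basophil and mast cells of ACD, where 19.3% of all genes were higher and 18% lower in basophil cells. Of 12 measured IgE signalling genes 2 were lower in basophil cells by 2-fold or more, the kinase gene Lyn and the phosphatase gene Inpp5d, and none was higher. The list median was -0.05, beside -0.12 for all genes. Fcer1g was at 1522 against 1226 per 1000000, a log2 ratio of 0.31 (0.16 to 0.47), so the gamma chain did not go with the lower alpha and beta chains. Of 12 granule genes 3 were higher (Srgn, Snap23 and Unc13d) and 2 lower (Ndst2 and Rab27b). Srgn reached 8353 against 3125 per 1000000, and Rab27b, a small GTPase of granule docking, was at 14.8 against 283. Of 10 identity and receptor genes not used in the gates, 3 were higher (Cebpa, Il18r1 and Itgam) and 3 lower (Mitf, Tal1 and Il1rl1). Cebpa, a transcription factor of granulocytes, stood at 329 against 9.04 per 1000000 and Mitf, a transcription factor of mast cells and of melanocytes, at 7.40 against 178. Melanocyte markers stood at 98.2 against 3085 per 1000000 in the same cells, and their part in the Mitf value was not tested.

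Genes with a pattern like that of the members were ranked by Pearson r of log2 levels over 23 points, which are cell classes of the 2 libraries and so share libraries and depth. Closest to the mean of Cma1, Mcpt4, Tpsb2, Tpsab1 and Cpa3 were Tph1 (0.916), which encodes the enzyme of serotonin synthesis, Rgs13 (0.895), Mrgprb1 (0.883), Sdsl (0.858) and 4930405D11Rik (0.850). Closest to the mean of Mcpt8 and Prss34 were Alox15 (0.966), Grm6 (0.966), Osm (0.928), Il4 (0.920) and Rab44 (0.917). Fcer1a (0.927) and Ms4a2 (0.895) were nearer to the mast profile than to the basophil profile (0.724 and 0.746), and Hdc was nearer to the basophil profile (0.849 against 0.592). These values describe the classes as gated, and the mixed content of the Kit+ Ptprc+ gate enters them.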

How the data were processed

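Ear skin was digested, dead cells were removed, and libraries were made with 3' droplet kits. The authors aligned reads to mm10-1.2.0 with Cell Ranger, whose version is v3.0.2 in their methods and 3.1.0 in the submitters' processing notes. The deposited values are raw UMI counts for each gene and barcode. Kept barcodes had 201 to 4999 genes, no more than 25000 UMIs and a mitochondrial share under 8%. The methods print the UMI limit in the other direction, and it was read as an upper one. No doublet caller was run. Alternatives were other cell filters, gates, marker limits, levels averaged over cells and other thinning depths. The 2-marker gates and the removal of top, protease-rich and Mcpt8-rich cells were chosen after seeing the data. Levels are UMI sums of a set per 1000000 of its UMIs, with exact Poisson intervals, shares have Clopper-Pearson intervals, and ratios have exact conditional binomial intervals. A gene was counted as past 2-fold if it had at least 50 UMIs over both sides. Other classes needed at least 3 UMIs of a class's markers and 66% of all class-marker UMIs. Fixed depths were reached by thinning to 2000 UMIs. The named genes are the members, the list genes, the gate markers and the 5 genes nearest each of 2 profiles on log2(UMIs per 1000000 + 10). Members and lists were chosen with earlier results of these data known, and the genes of the Cd3 comparison (Ncr1, Gzma, Eomes, Il7r) after the values were seen. Python 3.11.15, numpy 2.4.6 and scipy 1.17.1 were used. On simulated counts, 96.0% of intervals in Kit+ Ptprc+ cells (4777 genes) and 97.5% in Cd200r3+ Kit- cells (2446 genes) held the true ratio. Of genes changed by 4-fold, 180 of 180 and 156 of 157 were recovered, while 74 and 120 unchanged genes also passed 2-fold. These counts were drawn from the Poisson model that the intervals assume. They left out the clumping of UMIs in single cells, so they do not show how the intervals perform on these data.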

Additional observations from a re-analysis of the deposited data

How the results depend on the processing

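No paired analysis was possible because the labels give 1 library per group. Across alternatives, 63 values that answer a comparison moved by less than their interval or 1.5 times and 40 moved more. For single genes these numbers were 138 and 129, and 13 values of ratios past 2-fold turned direction. Ratios under 2-fold turned direction in 23 values, counted among the 138 and 129. The cause of these changes was not tested unless the setting names it. The log2 ratio of the gate shares was 0.79 for Kit+ Ptprc+ and 5.54 for Cd200r3+ Kit- cells without cells holding 5 UMIs of another class. It was 0.90 for the 2-marker mast gate, and 0.96 for Cd200r3+ Kit- with mast genes in the gates, which left 7 CTRL and 13 ACD cells. That setting asked for a UMI of Cyp11a1, Mrgprb1, Mrgprb2, Slc18a2 or Maob in the mast gate and for none in the basophil gate. Cyp11a1 is also a 2-marker basophil gene. Of 147 ACD cells with at least 5 Mcpt8 UMIs, 143 held 3 or more UMIs of 8 mast markers that include these genes. The setting thus took most Mcpt8 cells out of the ACD basophil gate, where 139 of 172 cells held Mcpt8.

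Members lower by 2-fold in Kit+ Ptprc+ cells of ACD (2 as reported) numbered 5 over all barcodes, 7 with gates at 2 UMIs, 1 each with mast genes in the gates, without cells of another class and as a mean over cells, and 0 each in 2-marker gates and without the top cell, where 0 were higher. In Cd200r3+ Kit- cells (6 higher and 1 lower) 0 were lower at 500 genes and under 5% mitochondrial UMIs, as a mean over cells and without the top cell. There 0 were higher and 0 lower with mast genes in the gates, 2 higher and 3 lower without cells of another class, and 2 and 2 in 2-marker gates. Basophil over mast cells (4 higher and 3 lower) gave 5 lower with gates at 2 UMIs and without cells of another class, 7 lower in 2-marker gates, and 0 higher and 9 lower with mast genes in the gates. The share of all genes past 2-fold was counted only for the reported gates and for some 2-marker comparisons. These were mast cells between the libraries and basophil over mast cells. Under the other settings, counts of members cannot be told apart from a shift of all genes.

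Log2 ratios past 2-fold that turned were, for ACD over CTRL in the basophil gate, Mcpt4 (bounds of 1.57 under the stricter cell filter and 2.24 without its top cell), Cpa3 (-2.20), Mcpt8 (-3.43) and Hdc (-2.31) with mast genes in the gates, Hdc (-0.0068) without cells of another class, and Cpa3 (-0.81) and Ms4a2 (-0.24) in 2-marker gates. For basophil over mast cells they were Mcpt8 (-3.57), Ms4a2 (bound of -4.36) and Hdc (-2.70) with mast genes in the gates and Ms4a2 (-1.58) in 2-marker gates. Tpsab1 in Kit+ Ptprc+ cells turned to 0.50 without its top cell. Of ratios under 2-fold, those that turned in 2-marker gates were Cma1 (0.13), Tpsb2 (0.44), Cpa3 (0.37), Ms4a2 (0.16) and Hdc (0.08) for ACD over CTRL in the mast gate, Cma1 (-2.85) in the basophil gate and Fcer1a (-2.25) for basophil over mast cells.

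The 4 proteases in stromal cells stood at 13.2 per 1000000 in ACD over all barcodes, 5.27 in CTRL and 8.22 in ACD under the stricter filter, 9.66 in CTRL with gates at 2 UMIs, 18.8 and 29.0 as means over cells, 3.998 and 4.83 without 2-marker cells, and 2.31 and 1.83 without protease-rich and Mcpt8-rich cells. Thinned to 1000 UMIs, 0.430% and 0.325% of stromal cells kept a protease UMI. With list genes counted from 20 UMIs, 3 were higher and 3 lower in Kit+ Ptprc+ cells, against 1 and 1. The share of all genes was not counted at that limit. The CTRL basophil gates, of 12 and 16 cells, limit every ratio against them.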
